A study of Arabidopsis thaliana and Cardamine hirsuta and Capsella rubella with 102 samples.

Results

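The flavonoid and anthocyanin pathway was followed through 10 genes in Arabidopsis thaliana seedlings treated with flg22, a peptide from bacterial flagellin that the receptor kinase FLS2 perceives. The genes were chosen by name for their place in the pathway: chalcone synthase (CHS, AT5G13930), chalcone isomerase (CHI, AT3G55120), flavanone 3-hydroxylase (F3H, AT3G51240), flavonoid 3'-hydroxylase (F3'H, AT5G07990), flavonol synthase 1 (FLS1, AT5G08640, an enzyme unrelated to the receptor FLS2), dihydroflavonol 4-reductase (DFR, AT5G42800), leucoanthocyanidin dioxygenase (LDOX, AT4G22880) and the transcription factors MYB12 (AT2G47460), MYB75 (AT1G56650) and TT8 (AT4G09820). The choice was made with earlier results of these data known. All 10 were found among the 27416 genes of the A. thaliana count tables. In the 3 other species, orthologs are reported only where the shortened copies of the study's gene lists used here pair them one to one, which they did for 1 of the 10, FLS1, and the orthologs of the other 9 are not analysed here.

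Whole seedlings 12 days old received either 1 µM flg22 or medium without the peptide (mock) in liquid culture, and RNA was sequenced after 1, 9 and 24 h in Col-0 of A. thaliana and in 3 relatives, Eutrema salsugineum, Cardamine hirsuta and Capsella rubella, which gave 72 libraries. In a second experiment, the A. thaliana accessions Kon, No-0, Kn-0, Can-0 and Gy-0 were treated in the same way and sampled at 1 h only, which gave 30 libraries. All are wild types without a transgene or mutation named in the labels. Each group had 3 replicates, one from each of 3 independent experiments, and each sample pooled several wells of seedlings. Roots and shoots were harvested together, so that for every gene below fewer cells of a type and less RNA per cell cannot be told apart.

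In plants, phenylalanine is converted by the general phenylpropanoid enzymes (PAL, C4H and 4CL) to p-coumaroyl-CoA, and CHS commits this precursor to flavonoids. CHI and F3H carry the product on to dihydroflavonols, F3'H adds a hydroxyl group to the B ring, and at this point the pathway divides: FLS1 forms flavonols, whereas DFR and LDOX lead to anthocyanins. In A. thaliana seedlings, MYB12, together with its relatives MYB11 and MYB111, activates the early genes and FLS1, and a complex of MYB75 (also called PAP1), a bHLH protein such as TT8, GL3 or EGL3, and the WD40 protein TTG1 activates the late genes. Flavonols and anthocyanins act as sunscreens and antioxidants, and light is a strong inducer of both.

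The promoters of these genes are known for short sites at which light- and defence-related factors bind, and 4 upstream windows are printed because they belong to the enzymes that the results below turn on. Each runs over the 250 bases before the RefSeq gene start in TAIR10.1, 5′ to 3′ on the gene's strand. CHS is chr5:4488226-4488475 on the plus strand, F3H is chr3:19024942-19025191 on the plus strand, FLS1 is chr5:2803583-2803832 on the plus strand and DFR is chr5:17166033-17166282 on the minus strand. Capitals mark G-boxes (CACGTG), AC elements (written ACCTACC for the first form, ACCAACC for the second and ACCTAAC for the third) and the W-box core (TTGAC), searched on both strands.
CHS: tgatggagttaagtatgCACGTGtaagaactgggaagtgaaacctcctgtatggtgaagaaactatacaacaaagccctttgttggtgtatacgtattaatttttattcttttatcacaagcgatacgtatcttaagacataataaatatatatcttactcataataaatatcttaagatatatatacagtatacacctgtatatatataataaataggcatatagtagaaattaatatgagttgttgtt
F3H: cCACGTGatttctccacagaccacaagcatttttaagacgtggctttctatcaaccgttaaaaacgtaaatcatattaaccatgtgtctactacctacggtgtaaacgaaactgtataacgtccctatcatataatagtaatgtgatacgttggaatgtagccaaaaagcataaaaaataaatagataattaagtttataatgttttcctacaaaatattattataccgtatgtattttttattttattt
FLS1: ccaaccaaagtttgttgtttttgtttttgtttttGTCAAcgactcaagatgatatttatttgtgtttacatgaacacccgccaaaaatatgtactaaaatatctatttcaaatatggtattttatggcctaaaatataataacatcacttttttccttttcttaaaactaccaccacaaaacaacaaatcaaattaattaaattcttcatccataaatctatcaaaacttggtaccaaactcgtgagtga
DFR: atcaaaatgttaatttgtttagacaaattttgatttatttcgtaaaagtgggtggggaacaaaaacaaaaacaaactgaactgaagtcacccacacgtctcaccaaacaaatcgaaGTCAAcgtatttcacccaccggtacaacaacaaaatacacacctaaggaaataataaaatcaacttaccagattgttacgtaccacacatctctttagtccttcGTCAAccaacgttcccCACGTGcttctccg
A G-box, the site of bZIP and bHLH factors, lay in the windows of 4 of the 10 genes (CHS, F3H, DFR and MYB12), against 6.49% of 27443 genes in the genome. The W-box core, contained in the sites of WRKY factors, lay in 5 of the 10 (CHI, FLS1, DFR, LDOX and TT8), against 44.9% of all genes. Of the AC elements, the sites of MYB factors, only ACCAACC was found, in the window of TT8, against 2.69% of all genes. These matches describe the letters in the windows and do not show that a factor binds there.

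Col-0 libraries held 21813097 to 35607867 counts on genes, those of the 3 other species 19327936 to 36897285 and those of the accessions 14039779 to 28168094. The flg22 marker genes FRK1, WRKY29, PROPEP3 and PER4 rose in every comparison in Col-0 and in the accessions, with a lowest log2 fold change of 1.42 for WRKY29 in Kn-0. BAN, a seed coat gene of proanthocyanidin synthesis, had 0 to 11 counts in the Col-0 libraries. Of the 4 listed genes of the proanthocyanidin branch, BAN among them, 2 passed the filter on low counts in Col-0. Levels are given below in CPM, counts normalised to the scaled library size. A gene is called higher or lower where the adjusted p of edgeR's quasi-likelihood test (Benjamini-Hochberg, over all genes tested) was below 0.01 and the absolute log2 fold change was above 1, and each log2 fold change is given with its standard error (SE). All 10 genes passed the filter on low counts in Col-0.

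In mock-treated Col-0 seedlings the transcript levels of the pathway rose over the day of sampling. From 1 to 9 h, 5 of the 10 genes rose (CHS, CHI, F3'H, FLS1 and MYB12), against 5.08% of all genes tested. From 1 to 24 h, 7 of the 10 rose, against 5.84% of all genes, and from 9 to 24 h, 3 rose, against 5.79%. FLS1 had 11.3, 13.2 and 10.6 CPM in mock replicates 1, 2 and 3 at 1 h, 106, 92.2 and 59.6 CPM at 9 h, and 168, 122 and 141 CPM at 24 h. The time groups of FLS1 did not overlap, and the log2 difference was 2.86 (SE 0.23, adjusted p = 7.61e-08) from 1 to 9 h and 3.62 (SE 0.23, adjusted p = 4.26e-08) from 1 to 24 h. Time after treatment and hour of the day cannot be told apart in these comparisons. The 4 shoot markers, by contrast, summed to 26401 to 36239 CPM in mock at 1 h, 14898 to 18672 CPM at 9 h and 13298 to 23910 CPM at 24 h, and 2 of the 4 were called lower from 1 to 9 h, LHCB1.3 (−1.95, SE 0.22, adjusted p = 4.46e-06) and LHCB2.1 (−6.73, SE 0.30, adjusted p = 9.84e-11). From 9 to 24 h, 1 of the 4 was called higher, and the largest log2 difference among them was 5.79. Between 1 and 24 h, 1 was called lower, and the lowest log2 difference was −1.23. The part of these marker shifts in the mock time course of the pathway was not tested.

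The genes did not follow one time course. CHI, which closes the flavanone ring, rose by 1.89 on the log2 scale from 1 to 9 h and by 1.16 again from 9 to 24 h. F3H differed little from 1 to 9 h (0.37, SE 0.25, adjusted p = 0.27) and then rose from 71.4, 64.7 and 26.3 CPM to 349, 202 and 218 CPM, a log2 difference of 2.30 (SE 0.25, adjusted p = 2.43e-06). MYB12, the flavonol regulator, rose by 2.19 from 1 to 9 h (SE 0.35, adjusted p = 0.000184) and differed by 0.08 from 9 to 24 h. MYB75, the anthocyanin regulator, was near the detection limit at 1 h, with 3, 6 and 10 counts in the mock libraries, and reached 11.1, 9.92 and 7.85 CPM at 24 h, a log2 difference of 5.26 (SE 0.78, adjusted p = 7.9e-05). DFR, LDOX and TT8 passed no test of mock time.

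Some of these mock calls rested on single experiments. Without replicate 1 or without replicate 2, the calls of CHS (log2 difference 1.11 and 1.23, adjusted p = 0.0245 and 0.0125) and F3'H (1.54 and 1.74, adjusted p = 0.0685 and 0.0322) from 1 to 9 h were lost, which left 3 genes. Without replicate 3, DFR (1.85, adjusted p = 0.00659), LDOX (2.08, adjusted p = 0.00025) and MYB75 (3.72, adjusted p = 0.00292) were added, which gave 8. From 9 to 24 h the call of MYB75 was lost without any 1 replicate (2.13 to 2.99, adjusted p of 0.0105 to 0.0253) and without the replicate block (2.49, adjusted p = 0.0101), and without replicate 3 the difference of CHI was 0.97, below the fold threshold. From 1 to 24 h, F3'H was lost without replicate 1 (1.34, adjusted p = 0.0853), without replicate 2 (1.61, adjusted p = 0.0323), without the replicate block (1.54, adjusted p = 0.0117) or with limma-voom (1.54, adjusted p = 0.0150), and MYB12 without replicate 1 (1.78, adjusted p = 0.0111).

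Per kilobase of exon, CHS was the most abundant of the 10 transcripts in mock seedlings at each time. At 1 h the level was 72.9 ± 10.9 CPM per kb for CHS (SD, n = 3), 26.8 ± 6.50 for F3H and 11.3 ± 2.26 for CHI, with no overlap between neighbours in this order. FLS1 (7.25 CPM per kb), DFR (6.36) and LDOX (5.17) followed and their ranges overlapped. At 9 h FLS1 was in the second place with 53.1 ± 14.8 CPM per kb, behind CHS with 174 ± 57.1, and from FLS1 downward each gene overlapped the next. At 24 h CHS (234 ± 29.4) and F3H (170 ± 53.3) overlapped, as did CHI (93.8 ± 16.5) and FLS1 (88.7 ± 14.3), and LDOX and DFR, with 12.6 ± 2.93 and 10.2 ± 4.17 CPM per kb, lay below these 4 enzymes, and F3'H lay lower still in its mean with 6.70 ± 1.36. The regulators MYB12, MYB75 and TT8 stayed at or below 8.67 CPM per kb in the group means.

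**Figure D1:**
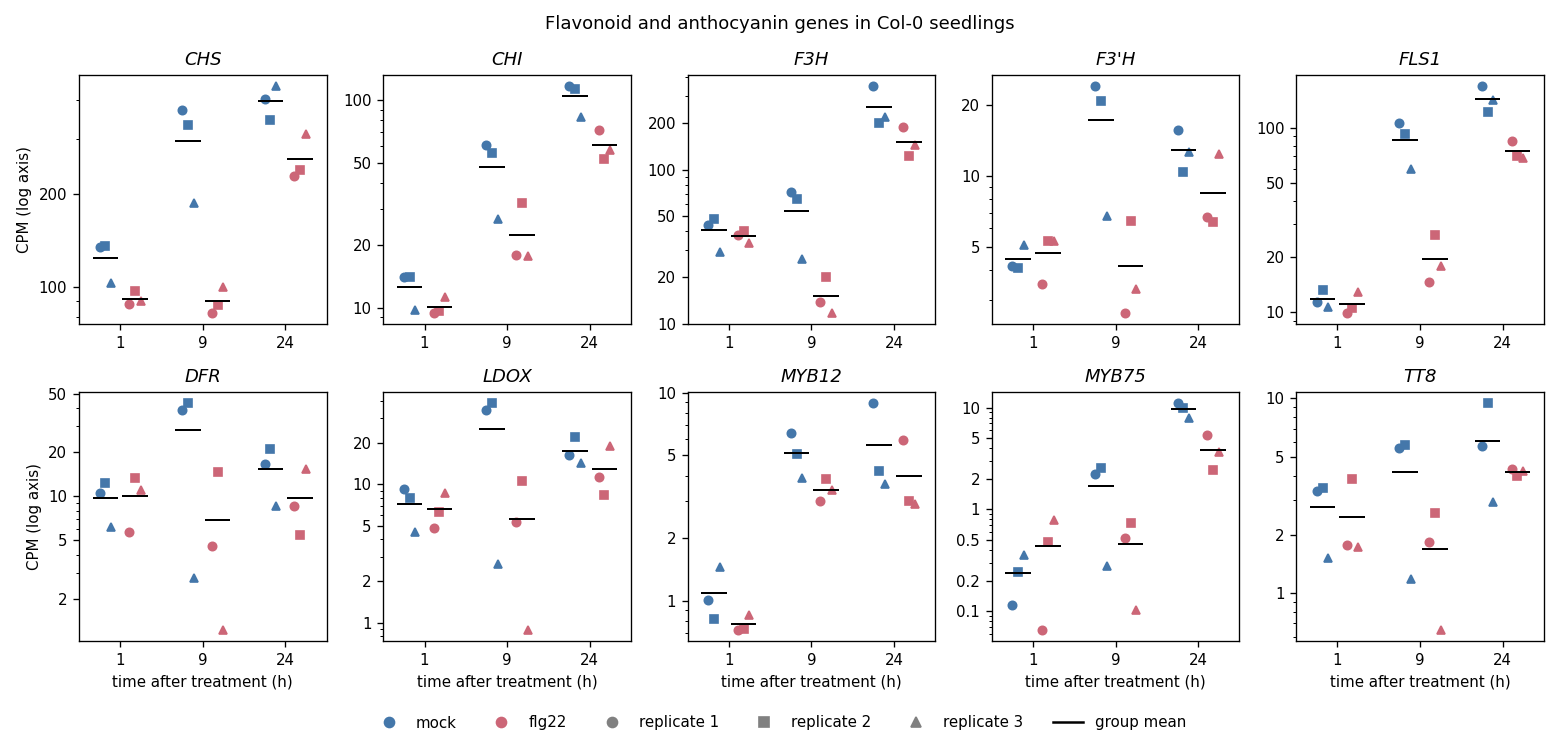
Levels of the 10 genes in Col-0 in CPM on a log axis, by time after treatment, with mock in blue and flg22 in red. Symbols mark the 3 replicates and bars the group means. At 9 h the flg22 samples of CHS (82.6 to 100 CPM) lie below all mock samples (187 to 371 CPM), and replicate 3 of DFR and LDOX lies far below replicates 1 and 2 in both treatments.

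After 1 h of flg22 none of the 10 genes was called in Col-0 (0 at an unadjusted p below 0.05, and 0 called by DESeq2 or limma-voom), at a time when 9.64% of all genes tested were higher and 2.3% were lower. CHS had 134, 136 and 103 CPM in mock and 88.4, 96.8 and 89.9 CPM after flg22, so that it was lower in all 3 pairs and the groups did not overlap, but the log2 fold change of −0.43 (SE 0.21) had an adjusted p of 0.112. FLS1, with 11.3, 13.2 and 10.6 CPM against 9.95, 10.5 and 12.8 CPM, overlapped between the treatments. The remaining log2 fold changes ran from −0.52 for MYB12 to 0.87 for MYB75, whose values rest on 2 to 22 counts per library.

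At 9 h 5 of the 10 genes fell after flg22, all of them enzymes (CHS, CHI, F3H, F3'H and FLS1), against 4.55% of all genes tested that fell and 6.51% that rose. All 10 genes were lower in each of the 3 pairs. The median log2 fold change of the 10 was −1.82, against −0.02 over all genes. By other tools, 6 (DESeq2) and 5 (limma-voom) of the 10 were called.

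CHS, the entry enzyme, had 371, 332 and 187 CPM in mock replicates 1, 2 and 3 at 9 h and 82.6, 87.7 and 100 CPM after flg22. The groups did not overlap, and flg22 samples held 22.3%, 26.4% and 53.6% of the paired mock level. The log2 fold change was −1.71 (SE 0.22, adjusted p = 1.7e-05), which is 30.6% of mock. The level after flg22 at 9 h lay in the range seen after flg22 at 1 h or just beside it, while mock had risen.

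FLS1, the flavonol synthase, had 106, 92.2 and 59.6 CPM in mock and 14.6, 26.2 and 17.8 CPM after flg22. The 3 pairs stood at 13.7%, 28.4% and 29.8% of mock, and the log2 fold change of −2.13 (SE 0.22) had the lowest adjusted p of the 10 genes (1.99e-06). F3H, which makes dihydroflavonols, had 71.4, 64.7 and 26.3 CPM in mock and 13.8, 20.1 and 11.8 CPM after flg22, again without overlap (−1.77, SE 0.26, adjusted p = 6.31e-05). CHS, F3H and FLS1 were called in each of the 11 alternative settings tried.

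F3'H, which sets the hydroxylation of the B ring, had 24.1, 20.8 and 6.78 CPM in mock and 2.64, 6.48 and 3.32 CPM after flg22 (−2.07, SE 0.42, adjusted p = 0.00115). CHI had 61.0, 55.5 and 26.8 CPM in mock and 17.8, 31.8 and 17.8 CPM after flg22, so that its groups overlapped through mock replicate 3 and flg22 replicate 2 (−1.06, SE 0.23, adjusted p = 0.00221). Both calls were lost without replicate 1, where the log2 fold change was −1.48 for F3'H (adjusted p = 0.0636) and −0.72 for CHI (adjusted p = 0.112).

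The anthocyanin enzymes had fold changes of the same size but did not pass the test. DFR had 38.5, 43.1 and 2.78 CPM in mock and 4.58, 14.7 and 1.23 CPM after flg22, a log2 fold change of −2.10 with an SE of 0.71 (adjusted p = 0.0284). LDOX had 34.3, 38.7 and 2.64 CPM in mock and 5.31, 10.6 and 0.890 CPM after flg22 (−2.17, SE 0.69, adjusted p = 0.0208). Both groups overlapped, since replicate 3 was low in mock and after flg22 alike.

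Replicate 3 at 9 h lay far below the others for the late genes in both treatments. In mock it stood at 6.81% of the mean of replicates 1 and 2 for DFR, 7.24% for LDOX, 11.6% for MYB75 and 20.9% for TT8, and after flg22 at 12.7%, 11.2%, 16.2% and 29.5% of that mean. For the early genes and FLS1 it stood between 30.2% (F3'H) and 60.1% (FLS1) in mock and between 69.7% (F3H) and 117% (CHS) after flg22. Over all genes the mock libraries at 9 h correlated at r = 0.974 to 0.989 with each other. Of all genes tested, 0.301% stood as low as DFR in mock replicate 3 or lower and 0.197% after flg22, and for TT8 these shares were 0.705% and 0.902%. Without replicate 3, DFR (−2.21, adjusted p = 0.00165), LDOX (−2.25, adjusted p = 0.000146) and TT8 (−1.41, adjusted p = 0.00916) passed the test, which gave 8 of 10 genes against 4.56% of all genes lower.

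Of the regulators, TT8 had 5.60, 5.74 and 1.18 CPM in mock and 1.84, 2.57 and 0.650 CPM after flg22 (−1.28, SE 0.38, adjusted p = 0.0158). MYB75 had 2.23, 2.56 and 0.278 CPM against 0.521, 0.745 and 0.103 CPM (−1.87, SE 0.71, adjusted p = 0.0491). MYB12 had 6.43, 5.06 and 3.89 CPM against 3.02, 3.83 and 3.42 CPM, a log2 fold change of −0.54 (SE 0.32, adjusted p = 0.198), the smallest of the 10. In a fit of the 9 h libraries alone, the block pairs mock and flg22 of that time. With all 3 replicates in this fit, DFR, LDOX, MYB75 and TT8 passed as well. This gave 9 of 10 genes against 5.06% of all genes lower.

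**Figure D2:**
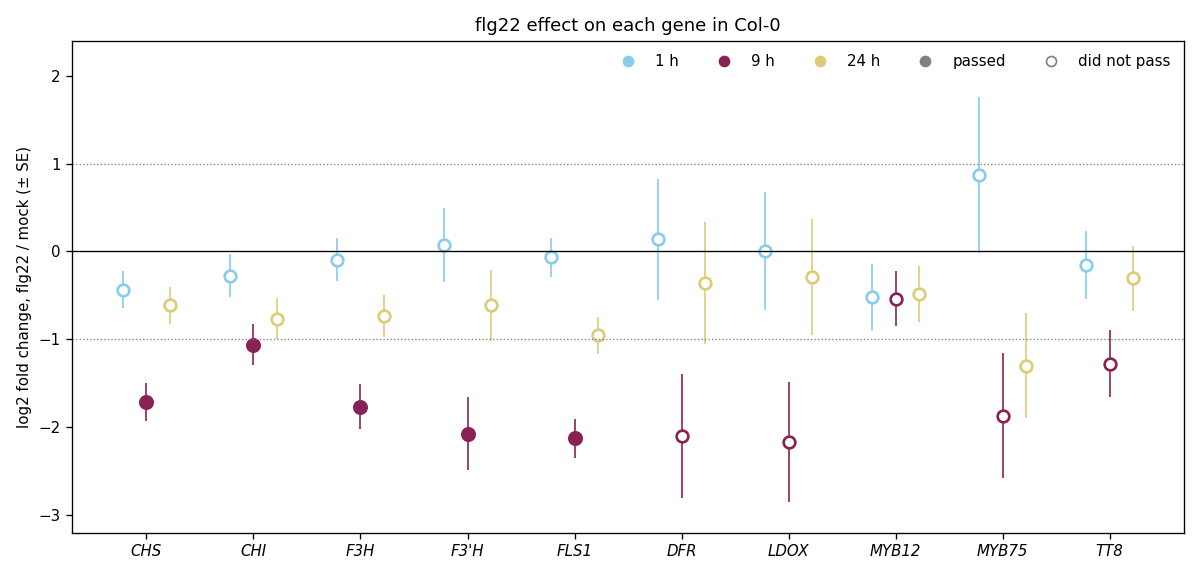
log2 fold change of flg22 against mock in Col-0 for each gene, with the SE as bars, at 1, 9 and 24 h. Filled points passed the threshold and open points did not, and dotted lines mark a log2 fold change of 1 in either direction. All 10 points at 9 h lie below 0, from −0.54 for MYB12 to −2.17 for LDOX, and 5 are filled.

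After 24 h none of the 10 genes was called (5 at an unadjusted p below 0.05, 0 called by DESeq2 or limma-voom), against 6.06% of all genes higher and 1.17% lower. The log2 fold changes were still below 0 for all 10 genes, from −0.30 for LDOX to −1.30 for MYB75, with a median of −0.61 against −0.03 over all genes. FLS1 had 168, 122 and 141 CPM in mock and 84.3, 69.9 and 68.7 CPM after flg22, without overlap, and its log2 fold change of −0.95 (SE 0.21, adjusted p = 0.00341) missed only the fold threshold. CHS had 405, 345 and 444 CPM against 229, 238 and 312 CPM (−0.61, SE 0.21, adjusted p = 0.0485). MYB75 had 11.1, 9.92 and 7.85 CPM against 5.36, 2.45 and 3.70 CPM, which did not overlap but varied enough to give an adjusted p of 0.139. After flg22, too, CHS, CHI, F3H, FLS1 and MYB75 had higher levels at 24 h than at 9 h in every replicate.

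The change of the flg22 effect with time was tested directly. From 1 to 9 h the effect became more negative for 3 of the 10 genes, against 5.29% of all genes with a change in either direction: FLS1 by −2.06 (SE 0.31, adjusted p = 0.000273), F3H by −1.67 (SE 0.35, adjusted p = 0.00438) and CHS by −1.27 (SE 0.30, adjusted p = 0.00898). F3'H, with −2.15 (SE 0.59, adjusted p = 0.0216), did not pass. These calls did not hold without 1 replicate: FLS1 had −1.77 (adjusted p = 0.0118) without replicate 1, F3H was lost without any 1 replicate (−1.43 to −1.83, adjusted p of 0.0109 to 0.109) and CHS without replicate 1 or 2 (−1.10 and −1.19, adjusted p = 0.164 and 0.0905). Without the replicate block only FLS1 remained, CHS (−1.28, adjusted p = 0.014) and F3H (−1.71, adjusted p = 0.0288) being lost.

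Between 24 and 1 h and between 24 and 9 h the effect differed for none of the 10 genes (1 and 4 at an unadjusted p below 0.05, and 0 called by DESeq2 or limma-voom), against 3.44% and 0.217% of all genes. The smaller fold changes at 24 h than at 9 h thus did not pass a test of their difference. FLS1 had the lowest adjusted p for the latter difference, 0.069, at a log2 difference of 1.18 (SE 0.30). The flg22 comparisons at the 3 times share no samples, but the rise of mock from 1 to 9 h and the fall after flg22 at 9 h share the mock libraries of 9 h.

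Genes around the 10 members were taken from lists of the pathway by function, and in the first step of the phenylpropanoid route the response ran the other way. Of the 8 tested entry genes, 6 rose at 1 h, against 9.64% of all genes tested. They were PAL1 (2.32), 4CL1 (2.17), PAL2 (1.68), C4H (1.44) and PAL4 (1.19), all log2 fold changes, and 4CL2. At 9 h, 5 of them rose still, against 6.51% of all genes. PAL1 rose by 1.69 from 199, 153 and 122 CPM in mock to 594, 360 and 590 CPM after flg22 (SE 0.20, adjusted p = 1.02e-05). The calls of PAL4 and 4CL2 at 9 h were lost without replicate 1 (1.09 and 0.95, adjusted p = 0.0138 and 0.0234) and, by the fold threshold alone, without replicate 3 (0.95 and 0.86). 4CL2 was also lost without the replicate block (1.07, adjusted p = 0.0130), and C4H at 1 h without replicate 1 (1.25, adjusted p = 0.0124). PAL2 (0.38, adjusted p = 0.0989) and PAL3 (−0.29, adjusted p = 0.271) did not pass at 9 h. The gene that fell was 4CL3, the isoform of 4-coumarate:CoA ligase that is tied to flavonoid synthesis. It had 23.8, 20.4 and 12.0 CPM in mock and 4.76, 4.54 and 4.14 CPM after flg22 at 9 h, a log2 fold change of −2.03 (SE 0.19, adjusted p = 5.71e-07), and it fell by 1.18 at 24 h (adjusted p = 7.37e-05). The list's median was 1.37 at 1 h and 1.09 at 9 h.

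The steps after FLS1 followed it in part. Of 6 tested genes for flavonol glycosylation and methylation, 2 fell at 9 h, against 4.55% of all genes. UGT89C1, a flavonol 7-O-rhamnosyltransferase, fell by 1.49 (SE 0.21, adjusted p = 5.16e-05), and UGT78D1, a flavonol 3-O-rhamnosyltransferase, by 1.46 (SE 0.21, adjusted p = 7.68e-05). OMT1, a methyltransferase that acts on flavonols and on lignin precursors, rose by 1.34 (SE 0.23, adjusted p = 0.000251), from 215, 196 and 196 CPM to 564, 352 and 647 CPM. The list's median was −0.82. CHIL, a chalcone isomerase-like protein that assists CHS, was the only gene called of 4 helpers and FLS relatives, against 4.55% of all genes lower. It had 92.7, 84.8 and 38.9 CPM in mock and 21.2, 38.3 and 17.0 CPM after flg22 (−1.50, SE 0.23, adjusted p = 0.00013). Without replicate 1 the calls of CHIL (−1.16, adjusted p = 0.0132) and UGT89C1 (−1.36, adjusted p = 0.0111) were lost.

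Of 8 genes for decoration and transport of anthocyanins, 3 fell at 9 h, against 4.55% of all genes, and the list's median was −1.98. The malonyltransferase 5MAT had 7.72, 5.93 and 0.869 CPM in mock and 1.15, 1.04 and 0.239 CPM after flg22 (−2.53, SE 0.64, adjusted p = 0.00584). UGT79B1, a glycosyltransferase of anthocyanins, fell by 2.45 (SE 0.67, adjusted p = 0.00892) and the acyltransferase SCPL10 by 2.12 (SE 0.44, adjusted p = 0.00136). The groups of 5MAT and UGT79B1 overlapped, replicate 3 being low in mock, as it was for DFR and LDOX. These 3 calls rested on single experiments: 5MAT had −2.35 (adjusted p = 0.0992) without replicate 1 and −2.52 (adjusted p = 0.0496) without replicate 2, UGT79B1 had −2.41 (adjusted p = 0.0981) and −2.27 (adjusted p = 0.0733), and SCPL10 had −1.68 (adjusted p = 0.0714) without replicate 1. UGT79B1 was also lost without the replicate block (−2.45, adjusted p = 0.0118) and with limma-voom (−2.28, adjusted p = 0.0189). TT19, a glutathione S-transferase needed for anthocyanin transport, had 23.2, 29.2 and 3.06 CPM against 4.27, 9.90 and 1.27 CPM and did not pass (−1.85, SE 0.61, adjusted p = 0.0255).

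Among 8 tested activators, the bHLH genes GL3 (−1.99, SE 0.50, adjusted p = 0.00518) and EGL3 (−1.78, SE 0.38, adjusted p = 0.00176) fell at 9 h, against 4.55% of all genes. Both also act in root hair and trichome fate, and EGL3 had fallen by 1.28 at 1 h already (adjusted p = 0.00973). At 9 h the call of GL3 was lost without any 1 replicate (−2.29 to −1.85, adjusted p of 0.0115 to 0.114) and that of EGL3 without replicate 1 (−1.56, adjusted p = 0.0309) or without the replicate block (−1.77, adjusted p = 0.0110). At 1 h EGL3 was lost without replicate 1 (−0.88, adjusted p = 0.167) or 3 (−1.31, adjusted p = 0.0393), without the block (−1.20, adjusted p = 0.0576), with RLE scaling (−1.24, adjusted p = 0.0118) and with 1 h in its own fit (−1.27, adjusted p = 0.0165). MYB111, a relative of MYB12, had 4.72, 3.56 and 1.88 CPM in mock and 0.798, 1.79 and 0.582 CPM after flg22 at 9 h, without overlap, at an adjusted p of 0.0111 (−1.68, SE 0.47). Of 11 repressors only SPL9 was called, lower at 1 h (−1.15) and at 9 h (−1.06), against 2.3% and 4.55% of all genes lower. A single call in a list of 11 does not set the list apart from these shares, and the list's median at 9 h was −0.14. The call of SPL9 at 1 h was lost without any 1 replicate (−1.22 to −1.07, adjusted p of 0.0224 to 0.0853) and that at 9 h without replicate 1 (−0.89) or 2 (−0.92). Both were lost without the block (adjusted p = 0.0118 and 0.0153) and with each time in its own fit (adjusted p = 0.0261 and 0.0202). At 24 h, 4CL3 was the only gene called in these lists of pathway genes, against 6.06% of all genes higher and 1.17% lower.

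**Figure D3:**
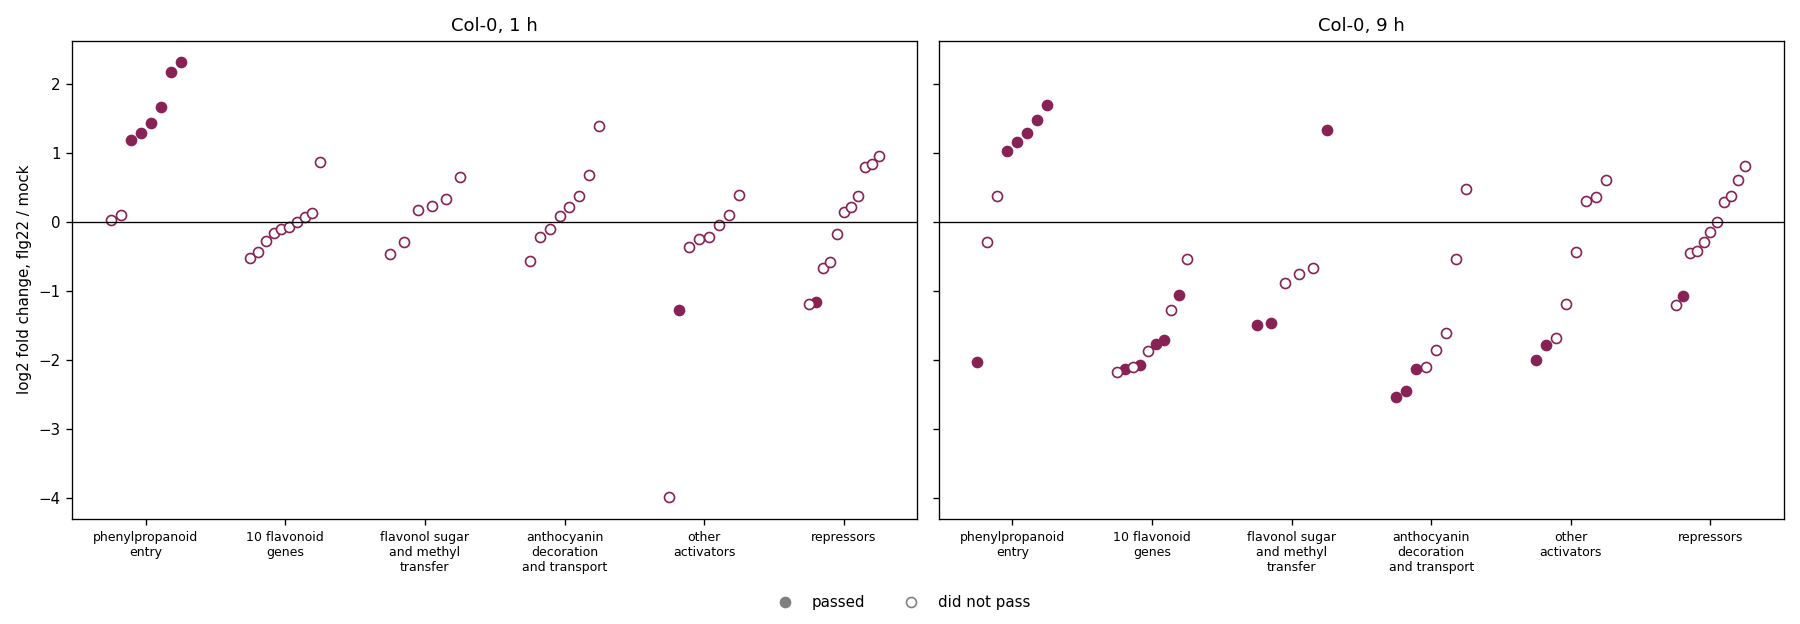
log2 fold change of flg22 against mock for each tested gene of the lists named under the axis, at 1 h and 9 h in Col-0. Filled points passed the threshold. At 9 h 5 of the 8 phenylpropanoid entry genes lie above 1 as filled points, while all 10 flavonoid genes lie below 0.

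Markers of other cells were compared at 9 h, since whole seedlings were used. The 4 shoot markers summed to 14898 to 18672 CPM in mock and 10977 to 15174 CPM after flg22, and none of the 4 was called (1 at an unadjusted p below 0.05), CA1 being nearest with a log2 fold change of −0.73 (SE 0.20, adjusted p = 0.0081). The sum was lower in all 3 pairs, with 15476, 18672 and 14898 CPM in mock and 10977, 15174 and 11496 CPM after flg22, and all 4 markers had log2 fold changes below 0. None of 5 endodermis markers was called (0 at an unadjusted p below 0.05), with sums of 19.3 to 27.3 CPM in mock and 18.4 to 37.5 CPM after flg22. The root hair marker EXPA7 fell by 1.53 (SE 0.39, adjusted p = 0.0062), and the 2 root hair markers summed to 6.53 to 6.84 CPM in mock and 2.08 to 4.89 CPM after flg22. The call of EXPA7 was lost without replicate 1 (−1.24, adjusted p = 0.0477) or 2 (−1.30, adjusted p = 0.0751) and without the replicate block (−1.41, adjusted p = 0.0268). The part of these shifts in the fall of the flavonoid genes was not tested.

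Across the 18 Col-0 libraries, log2 CPM of CHI and FLS1 correlated at r = 0.97, of CHS and FLS1 at r = 0.93 and of DFR and LDOX at r = 0.94, whereas FLS1 and DFR had r = 0.39. MYB75 had r = 0.91 with CHI and 0.53 with DFR, and F3'H had r = 0.79 with LDOX and 0.83 with FLS1. These values describe 18 libraries that share times, treatments and experiments. Among 18064 genes ranked in this way, the 5 most similar to CHS were KAT5 (0.96), AT5G02050 (0.95), PPR596 (0.95), FLS1 (0.93) and TRM11 (0.93). For FLS1 they were CHI (0.97), BRG2 (0.96), AT4G04750 (0.95), MYB111 (0.95) and KAT5 (0.95), and for DFR they were LDOX (0.94), TT19 (0.88), CSLA10 (0.86), TT8 (0.84) and KIN2 (0.84). For MYB12 they were UGT73C1 (0.94), AT1G52770 (0.93), AT3G20870 (0.92), CYP706A6 (0.92) and AT5G27930 (0.92). Over the 30 accession libraries at 1 h, CHS and FLS1 had r = 0.88, CHI and FLS1 had r = 0.78 and DFR and LDOX had r = 0.69, but CHS and KAT5 had r = 0.32, FLS1 and MYB111 had r = 0.25 and MYB12 and UGT73C1 had r = −0.05.

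In the 5 other accessions, sampled at 1 h only, the question was whether the pathway answers flg22 in the same way as in Col-0 at that time. MYB75 and TT8 did not pass the filter on low counts in any of them (0 to 25 counts and 0 to 7 counts per library), and DFR did not in No-0, which left 7 genes there and 8 in the other 4. None of these was called in any accession, while 16.4% of all genes tested were called in Can-0, 14.8% in Gy-0, 9.21% in Kn-0, 20.4% in Kon and 20.7% in No-0. At an unadjusted p below 0.05 there were 4, 2, 1, 1 and 1 genes in the same order, and DESeq2 and limma-voom called 0 in each.

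CHS was nevertheless lower after flg22 in all 3 pairs of each accession. In Kon it had 129, 124 and 121 CPM in mock and 73.5, 56.1 and 65.0 CPM after flg22, without overlap, and the log2 fold change of −0.95 (SE 0.14, adjusted p = 0.000296) stopped short of the fold threshold. In Can-0 it had 53.6, 130 and 106 CPM against 36.7, 59.1 and 66.2 CPM (−0.79, SE 0.14, adjusted p = 0.00223). The values were −0.48 in Gy-0 (adjusted p = 0.00982), −0.51 in Kn-0 (adjusted p = 0.0634) and −0.39 in No-0 (adjusted p = 0.0323), beside −0.43 in Col-0. The groups overlapped in Can-0 and in these 3 accessions. Without replicate 1, CHS in Kon was called, at −1.02 (adjusted p = 0.000143).

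CHI and FLS1 differed only in Can-0 among the accessions at an adjusted p below 0.05. CHI had 17.5, 30.8 and 35.3 CPM in mock and 12.6, 14.0 and 18.3 CPM after flg22 there (−0.86, SE 0.15, adjusted p = 0.00269), and FLS1 had 10.6, 30.2 and 27.9 CPM against 9.17, 10.8 and 18.2 CPM (−0.78, SE 0.23, adjusted p = 0.0245). Without replicate 1 both were called, CHI at −1.01 and FLS1 at −1.01. FLS1 in the other accessions ranged from −0.33 in Kn-0 to 0.09 in No-0. Whether the accessions differed in their response was tested in a single fit without a replicate block, so that mock and flg22 samples were not paired. The effect of flg22 differed for none of the 8 genes (0 at an unadjusted p below 0.05, lowest adjusted p 0.9999), against 0.375% of all genes. With a block of replicate number shared by the accessions the count was 0 as well. Such a test does not show that the accessions respond alike, since the fitted effects on CHS spanned 0.50 and those on CHI 0.84 on the log2 scale.

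**Figure D4:**
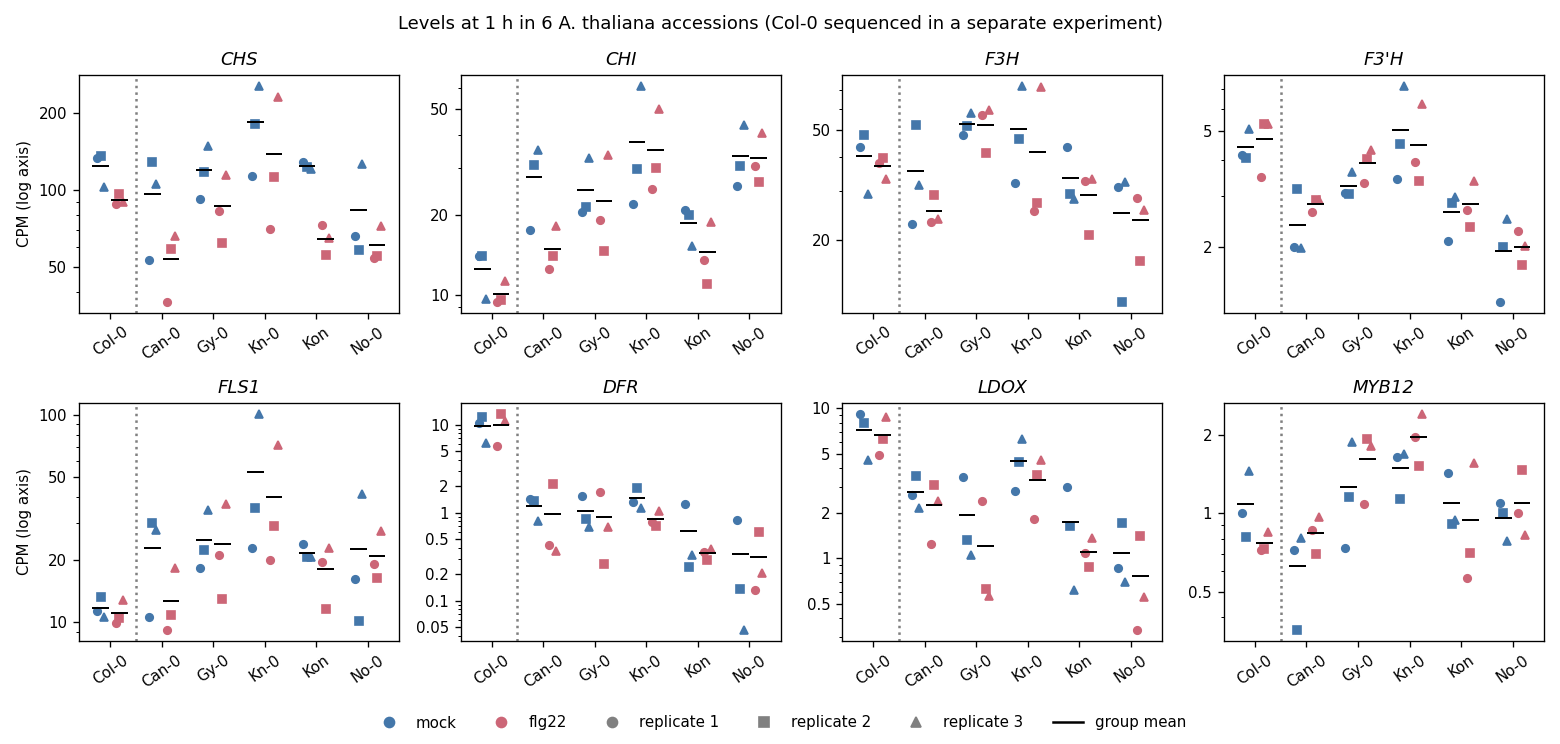
Levels of 8 of the 10 genes at 1 h in CPM on a log axis, in Col-0 and the 5 other accessions, with mock in blue, flg22 in red, symbols for the 3 replicates and bars for the means. The dotted line sets off Col-0, which was sequenced in a separate experiment. CHS lies lower after flg22 within each pair, as in Kon with 121 to 129 CPM in mock and 56.1 to 73.5 CPM after flg22.

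The mock level differed between the 5 accessions for none of the 8 genes (2 at an unadjusted p below 0.05), against 12.2% of all genes. F3'H came nearest, with 3.42, 4.53 and 7.20 CPM in Kn-0 and 1.29, 2.00 and 2.50 CPM in No-0 and a range of fitted levels of 1.05 on the log2 scale (adjusted p = 0.0453). With the replicate number as a block, F3'H was called. FLS1 spanned a range of 1.22 (adjusted p = 0.258). Its highest value was 101 CPM in Kn-0 replicate 3, where replicates 1 and 2 had 22.8 and 35.7 CPM. DFR was low in all of them, with mean mock levels of 0.335 (No-0) to 1.46 CPM (Kn-0), beside 9.67 CPM in Col-0, and LDOX with 1.09 to 4.47 CPM beside 7.24 CPM in Col-0. TT8, which did not pass the filter there, had means of 0 (Can-0) to 0.147 CPM (Kn-0), beside 2.77 CPM in Col-0. Col-0 was sequenced in the other experiment with another read length, so accession and experiment cannot be told apart here and these last differences were not tested.

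Beyond the members, MYB111 fell in all 5 accessions at 1 h, by 2.31 in Can-0, 2.26 in Gy-0, 2.01 in Kn-0, 2.64 in Kon and 2.17 in No-0 on the log2 scale (adjusted p of 0.000518 to 0.00621), and in each its groups did not overlap. Without the replicate block the call was lost in all but Kn-0 (adjusted p of 0.0114 to 0.0775), without replicate 2 it was lost in Can-0 (−1.80, adjusted p = 0.0623) and Gy-0 (−2.28, adjusted p = 0.0162), and without replicate 3 in Can-0 (−2.17, adjusted p = 0.0288). In Kn-0, where it was most abundant, it had 2.76, 4.74 and 5.65 CPM in mock and 0.670, 1.63 and 0.988 CPM after flg22. In Col-0 at 1 h it had 0.929, 0.447 and 0.814 CPM in mock and 0.428, 0.604 and 1.10 CPM after flg22 (−0.04, SE 0.54), and the difference between experiments was not tested. UGT78D1 fell in Can-0 (−1.24), Kn-0 (−1.35) and Kon (−1.04), the only call there among 6 tested genes of its list. Of 8 phenylpropanoid entry genes, 3 were called in Can-0, 5 in Gy-0, 2 in Kn-0, 6 in Kon and 4 in No-0. Calls over all genes came to 16.4%, 14.8%, 9.21%, 20.4% and 20.7% in the same order. The phenylpropanoid gene 4CL1 rose in all 5, by 1.43 (Kn-0) to 2.27 (Kon), and PAL1 and PAL2 rose in all but Kn-0, by up to 2.41 and 2.34 in Kon, while PAL3, a PAL gene of low activity, fell in Gy-0 (−1.19), Kon (−2.09) and No-0 (−1.80). UGT78D1 was lost in Can-0 without replicate 2 (−0.94) or 3 (−1.15) and in Kon without replicate 1 (−0.90) or 2 (−0.98), and in both without the block (adjusted p = 0.0219 and 0.0167). PAL3 was lost in No-0 without replicate 1 (−1.62, adjusted p = 0.0384) or 3 (−1.63, adjusted p = 0.0173), with DESeq2 (−1.81, adjusted p = 0.0131) and without the block (−1.86, adjusted p = 0.0175), and in Gy-0 without the block (−1.19, adjusted p = 0.0212).

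A few other pathway genes were called in some of the accessions. Of 11 repressors, 2 were called in Can-0, Gy-0 and Kon each and 0 in Kn-0 and No-0. Of 5 or 6 tested genes for anthocyanin decoration and transport, 1 was called in each accession but Kn-0. In Can-0, 2 of 7 activators were called. All genes called came to 16.4% in Can-0, 14.8% in Gy-0, 9.21% in Kn-0, 20.4% in Kon and 20.7% in No-0. Counts this small do not set the lists apart from these shares. The anthocyanin acyltransferase gene 3AT2 rose in Can-0 (2.04), Gy-0 (3.24) and Kon (3.66). In No-0 its mock libraries held 0 to 2 counts and its flg22 libraries 15 to 22, which is at least 3.21 higher on the log2 scale when 3 counts are set as the mock level of each library. The repressor gene MYB7 rose in Can-0 (1.41), Gy-0 (1.31) and Kon (1.74), the repressor gene LBD39 fell in Can-0 (−1.08) and Kon (−1.41), SPL9 fell in Gy-0 (−1.48), and TTG1 rose in Can-0 (1.03). Among cell type markers, CASP5 fell in Can-0 (−1.87), Gy-0 (−1.32) and No-0 (−1.18), LHCB2.1 fell in Can-0 (−1.12), and EXPA7 rose in Kon (1.34) and No-0 (1.59). Of the 5 endodermis markers, CASP5 among them, only 1 had a log2 fold change below 0 in Gy-0 and 2 in No-0, with medians of 0.10 and 0.32. All 5 were below 0 in Can-0, with a median of −0.34. In Can-0, leaving out 1 replicate ended the calls of LBD39 and LHCB2.1 (without 2, −0.99 each, and without 3, −0.92 and −1.02) and, without replicate 3, of MYB7 (1.46), TTG1 (0.86) and CASP5 (−1.66). In Gy-0 it ended those of 3AT2 (3.21) and SPL9 (−1.12) without replicate 2 and of CASP5 without 2 (−1.57) or 3 (−0.93). Without the block, 3AT2, MYB7, LBD39, TTG1, LHCB2.1 and CASP5 were not called in Can-0, 3AT2, MYB7, SPL9 and CASP5 in Gy-0 and CASP5 in No-0 (adjusted p of 0.0163 to 0.207). The part of these markers in the levels of the flavonoid genes was not tested.

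FLS1 was the gene that could be followed across species, through Thhalv10014054 in E. salsugineum, CARHR204340 in C. hirsuta and Carubv10001381 in C. rubella. It is listed because the study chose it on these same libraries as a gene that responds to flg22, so its response as such is no independent evidence of a direction. At 9 h the ortholog fell in C. hirsuta and E. salsugineum, as FLS1 did in Col-0, but not in C. rubella. Calls in either direction made up 12.4%, 2.63% and 3.08% of genes tested at 1, 9 and 24 h in E. salsugineum. Such calls came to 13.9%, 6.54% and 1.36% in C. hirsuta and 19.9%, 2.27% and 7.66% in C. rubella.

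In C. hirsuta the ortholog had 56.1, 59.7 and 35.3 CPM in mock at 9 h and 12.7, 18.9 and 18.5 CPM after flg22, without overlap (−1.57, SE 0.28, adjusted p = 0.00165). In E. salsugineum it had 28.0, 35.6 and 21.1 CPM against 10.4, 12.5 and 8.77 CPM, again without overlap (−1.41, SE 0.26, adjusted p = 0.00361). In C. rubella it had 16.7, 21.9 and 6.10 CPM against 17.0, 20.5 and 14.6 CPM, which overlapped (0.36, SE 0.28, adjusted p = 0.464). The call in C. hirsuta was lost without any 1 replicate (−1.31 to −1.89, adjusted p of 0.0158 to 0.0264), and that in E. salsugineum without replicate 2 (−1.34, adjusted p = 0.0326) or 3 (−1.50, adjusted p = 0.0798) and without the replicate block (−1.42, adjusted p = 0.0501).

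At 1 h the ortholog rose in C. hirsuta, from 11.9, 14.7 and 8.22 CPM to 18.5, 32.3 and 22.9 CPM (1.09, SE 0.28, adjusted p = 0.00803), a call that was lost without any 1 replicate (0.92 to 1.28, adjusted p of 0.0117 to 0.0883). In C. rubella it had 5.77, 12.4 and 7.70 CPM in mock and 21.9, 20.3 and 9.98 CPM after flg22 (0.96, SE 0.29, adjusted p = 0.0142), and it was called without replicate 3 (1.28, adjusted p = 0.00484). In E. salsugineum the log2 fold change was 0.03 (SE 0.26). The effect in C. hirsuta thus turned from 1.09 at 1 h to −1.57 at 9 h, a difference of −2.65 (SE 0.40, adjusted p = 0.00229) that did not pass without replicate 2 (−2.58, adjusted p = 0.0705) or 3 (−2.81, adjusted p = 0.0405). The same difference was −1.44 in E. salsugineum (adjusted p = 0.0144) and −0.60 in C. rubella (adjusted p = 0.3). At 24 h the log2 fold changes were −0.36 in C. rubella, −0.63 in E. salsugineum and −0.14 in C. hirsuta, and none passed.

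Mock levels of the ortholog differed in their time course as well. From 1 to 9 h it rose in C. hirsuta (2.12, SE 0.29, adjusted p = 0.000122), and from 9 to 24 h in C. rubella (2.03, SE 0.29, adjusted p = 4.5e-05), where it reached 68.8, 81.9 and 29.0 CPM. In E. salsugineum no difference between times in mock exceeded 0.24 on the log2 scale.

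Differences between species were tested among 4365 listed orthologs. The effect of flg22 on FLS1 differed over the 4 species at 9 h, with a range of 2.37 on the log2 scale (adjusted p = 0.00442), against 7.77% of the orthologs. C. rubella differed from Col-0 by 2.37 (SE 0.52, adjusted p = 0.00184), whereas C. hirsuta (0.54, SE 0.51, adjusted p = 0.687) and E. salsugineum (0.72, SE 0.51, adjusted p = 0.481) did not pass. Without replicate 1, 2 or 3 the range was 2.12, 2.84 and 2.24 and the adjusted p 0.158, 0.0355 and 0.0289, so that the call was lost each time, as was that of C. rubella against Col-0 (adjusted p of 0.0118 to 0.105). At 1 h the range was 1.16 (adjusted p = 0.0866), against 36.9% of the orthologs, and at 24 h it was 0.77 (adjusted p = 0.708), against 6.25%. Most of these orthologs were chosen by the study as responsive, so the shares and the adjusted p-values hold for this panel only.

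**Figure D5:**
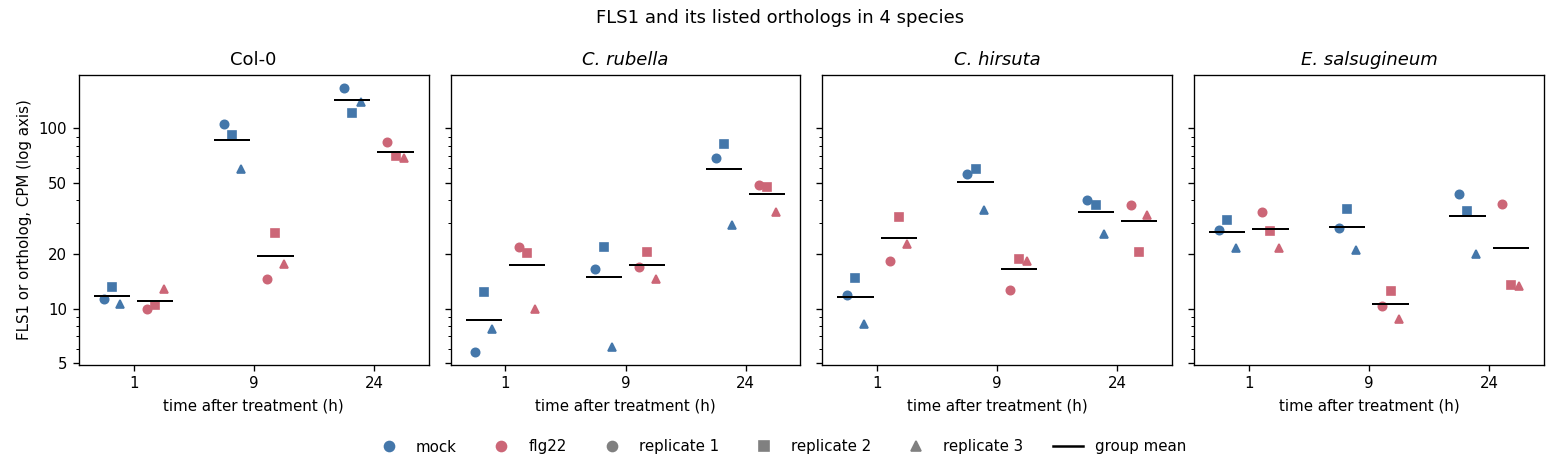
Levels of FLS1 in Col-0 and of its listed ortholog in the 3 other species in CPM on a log axis, by time after treatment, with mock in blue, flg22 in red, symbols for the 3 replicates and bars for the means. At 9 h the flg22 samples lie below all mock samples in Col-0, E. salsugineum and C. hirsuta, and among them in C. rubella (14.6 to 20.5 CPM against 6.10 to 21.9 CPM).

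The other listed orthologs of the pathway were mainly phenylpropanoid entry genes. PAL1, PAL2, C4H and 4CL1 rose at 1 h in all 3 species, PAL2 by 4.44 in C. hirsuta, 3.54 in E. salsugineum and 2.71 in C. rubella, and these genes too are listed because the study selected them on these libraries. Only called orthologs are named below, and most listed orthologs were chosen by the study as responsive in the same way. Over all genes, calls at 1 h came to 13.9% in C. hirsuta, 12.4% in E. salsugineum and 19.9% in C. rubella. The calls below therefore do not set the pathway apart from other genes. KFB-CHS, an F-box protein that marks CHS for degradation in A. thaliana, rose at 1 h in C. hirsuta (2.08, SE 0.30) and E. salsugineum (2.00, SE 0.33). MYBL2, a repressor of the late genes, rose in E. salsugineum at 1 h and, by 1.64, in C. hirsuta at 9 h, and the repressor genes MYB4 in C. hirsuta (1.35) and MYB7 (1.19) and MYB32 (1.23) in E. salsugineum rose at 1 h. The light signalling genes HY5 in C. rubella (1.09) and HYH in E. salsugineum (1.81) rose at 1 h as well, as did UGT78D2 (1.03) and RHM1 in C. rubella. There, 3AT1, an anthocyanin acyltransferase gene, fell at 1 h (−1.60) and at 24 h (−2.01), and AHA10, a proton pump of the proanthocyanidin branch, fell at 1 h (−1.19). Of these calls, those of UGT78D2 (0.98 and 0.90 without replicate 1 and 2), 3AT1 and AHA10 at 1 h (−1.67 and −1.18 without replicate 2, −1.51 and −1.27 without 3) and 3AT1 at 24 h (−1.78 without replicate 2) were lost in C. rubella when a replicate was left out, as was C4H at 1 h (1.00 and 1.07 without replicate 1 and 2). In C. hirsuta, MYB4 (1.36) was lost without replicate 2 and MYBL2 at 9 h without 2 or 3 (1.52 each), and in E. salsugineum, MYBL2 at 1 h was lost without 1 or 2 (1.09 and 1.06) and MYB32 without any 1 replicate (1.15 to 1.33). UGT78D2 in C. rubella (1.08, adjusted p = 0.0165) and MYBL2 in E. salsugineum (1.19, adjusted p = 0.0362) were lost without the replicate block as well.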

How the data were processed

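The authors deposited read counts per gene (whole numbers, not normalized), made per the labels and the study's methods with cutadapt 1.5, TopHat2 and HTSeq 0.6.0 against TAIR10 for A. thaliana. Reads were 100 bp in the species and 150 bp in the accession experiment, from a strand-marking kit. Per the study, its analyses of the accessions used reads mapped to the Col-0 genome, and genomes corrected for sequence differences served as a check. Lines of the counter's summary (7.11 to 50.0% of a library) were left out. The highest share was in Col-0 mock replicate 2 at 24 h, which also had the lowest depth in Col-0 (21813097 counts). It correlated with mock replicates 1 and 3 of that time at r = 0.960 and 0.938. Depth was 14039779 to 36897285 counts per library.

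Counts were scaled by TMM and tested in R 4.3.3 with the quasi-likelihood test of edgeR 4.0.16, after genes averaging under 10 counts in a fit were dropped, with Benjamini-Hochberg adjustment and calls at an adjusted p below 0.01 and an absolute log2 fold change above 1. CPM were computed with the TMM-scaled library sizes. Replicate number was a block within a genotype, since the study's methods describe 3 independent experiments, each with its own mock and flg22 samples. Where a genotype was sampled at 3 times, the block was shared by these times. In 45 of 51 pairs the deviations of the mock and flg22 samples from their group means correlated above 0.1 (median 0.363). The Col-0 pairs at 24 h were not among these, with 0.059, 0.052 and −0.068 for replicates 1, 2 and 3. The highest correlation between replicates was 0.989, and no library was counted as a repeat. Comparisons over accessions and species had no block. Alternatives were DESeq2 1.42.0, limma-voom (limma 3.58.1), RLE scaling, other count filters, other thresholds, the block, separate fits per time and leaving out each replicate. The scripts were tested on simulated counts. Upstream windows came from the RefSeq annotation of TAIR10.1.

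The 10 genes and the lists of other genes were chosen with earlier results of these data known. Named were all 10 genes, the up to 4 genes per list with the largest change among those called, listed orthologs that were called, and the 5 genes most correlated with CHS, FLS1, DFR and MYB12. PAL4, C4H, 4CL2, 4CL3, TT19, BAN and CA1 were named in Col-0 after their values were seen.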

Additional observations from a re-analysis of the deposited data

Results flagged for a closer look

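The effect of flg22 in Col-0 differed between 1 and 9 h by a direct test for 3 of the 10 genes, by −1.27 for CHS (adjusted p = 0.00898), −1.67 for F3H (adjusted p = 0.00438) and −2.06 for FLS1 (adjusted p = 0.000273) on the log2 scale. In C. hirsuta the FLS1 ortholog differed in the same way, by −2.65 (adjusted p = 0.00229), with a rise at 1 h and a fall at 9 h.

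The effect on FLS1 at 9 h differed over the 4 species by a range of 2.37 (adjusted p = 0.00442), and C. rubella differed from Col-0 by 2.37 (adjusted p = 0.00184). Both values hold only for the panel of listed orthologs. Most of these, FLS1 among them, were chosen by the study as responsive on the same libraries. All adjusted p-values are from edgeR's quasi-likelihood test. Each of these calls was lost in at least 1 of the fits that left out a replicate.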

How the results depend on the processing

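No called direction of the 10 genes, the FLS1 orthologs or the other listed genes reversed under an alternative run for it. Of the 10 genes, 5 were called at 9 h in Col-0, 3 to 8 when 1 replicate was left out and 9 either at an adjusted p below 0.05 with any fold (36.2% of all genes tested pass this, in either direction) or with each time in its own fit. At 24 h the count went from 0 to 4 at that threshold (19.9% of all genes). The mock count from 1 to 9 h ranged from 3 to 8 and that from 9 to 24 h from 1 to 2 when a replicate was left out. For the change of the flg22 effect from 1 to 9 h, 1 gene was called without the replicate block and 0 to 2 when a replicate was left out. In the accessions, an adjusted p below 0.05 with any fold gave 3 genes in Can-0 (42.8% of all genes) and 1 each in Gy-0, Kon and No-0 (45.0%, 42.8% and 47.5%), and leaving out a replicate gave 0 to 2 in Can-0 and 0 to 1 in Kon. The mock level differed between accessions for 1 gene with the replicate block (F3'H), 1 without the count filter (MYB75) and 1 at an adjusted p below 0.05 (F3'H). The cause of these shifts was not tested, except that a replicate left out leaves fewer samples.

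FLS1 in C. rubella at 1 h had 1.05 with limma-voom, where it was called, 0.96 at an adjusted p below 0.05, where it was called, and 0.54 to 1.28 when a replicate was left out. FLS1 in C. hirsuta had 1.05 at 1 h with limma-voom (adjusted p = 0.0141) and 0.92 to 1.28 when a replicate was left out, and −1.89 to −1.31 at 9 h. In E. salsugineum at 9 h it had −1.42 without the replicate block (adjusted p = 0.0501) and −1.50 to −1.34 when a replicate was left out. The range over species at 9 h was 2.12 to 2.84 when a replicate was left out. For FLS1 in these species, the alternatives for differences between times were chosen after seeing the data. Of 717 single-gene values of flg22 against mock under an alternative, 690 stayed on the same side of the threshold, called or not, 2 lost a call and 25 gained one. For the genes of the other lists, whose alternatives were chosen after seeing the data, 1513 of 1644 values of called genes kept the call and 131 lost it. Low counts limit what can be said of MYB75 and TT8 in the accessions, where libraries held 0 to 25 and 0 to 7 counts.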
